A study of Rattus norvegicus with 24 samples.

Results

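The ribosomal protein genes were followed in 6 tissues of the ageing rat. Members were the probe sets whose annotation gives a single gene symbol that begins with Rpl or Rps and a digit, or that is Rplp0, Rplp1, Rplp2 or Rpsa, with the Rps6k kinases left out. The rule found 44 of the 10411 genes named by a single symbol, on 50 of the 15866 probe sets that were not controls. Of these, 33 probe sets (30 genes) belong to the large subunit of the ribosome and 17 (14 genes) to the small subunit. A further 34 probe sets carry such a symbol together with other symbols and were not counted as members.

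Each of 24 Affymetrix RAE230A arrays held the RNA of 1 tissue at 1 age. The animals were male Sprague-Dawley rats of 4, 10, 18 and 24 months with no treatment given in the labels, and the tissues were bone, hypothalamus, kidney, liver, pituitary and spleen lymphocyte. Every array was hybridised with a mixture of RNA from 10 rats, and the same 10 rats gave all tissues of an age. Each tissue and age therefore had 1 array and no replicate, the 4 arrays of a tissue differ in age, and the arrays of an age share their animals. A value is a MAS5.0 signal, a linear intensity scaled by the authors to a target of 500 per array, and a log2 difference of 1 is a doubling. Signals were compared between arrays for the same probe set and never between probe sets.

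Ribosomal proteins assemble with ribosomal RNA into the particle that translates messenger RNA, and every nucleated cell makes them in nearly equal numbers. In vertebrates their mRNAs begin with a cytosine and a run of pyrimidines, the terminal oligopyrimidine tract, through which growth signalling by mTOR controls their translation. Their transcription is raised by growth signals and by the factor Myc. A few ribosomal protein genes have close relatives that are used in particular tissues, as Rpl3l is in striated muscle.

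The start sites of some of the genes described below are shown because the pyrimidine run is the feature the family is known for. The windows come from RefSeq on the GRCr8 assembly, were available for 37 of the 44 genes, and hold 15 bases before the start and 15 from the start on, 5′ to 3′ on the gene's strand. Capitals mark a run of at least 5 pyrimidines that begins with C within 10 bases of the start. The first 6 genes, in the order given, encode a large-subunit protein that bridges to the small subunit, a protein at the decoding centre of the small subunit, an RNA-binding protein of the large subunit, a protein known in human cells for translational silencing, the base of the ribosomal stalk and a stalk-associated protein.
Rpl19 (chr10:83519049-83519078, plus strand): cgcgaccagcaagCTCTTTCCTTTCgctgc
Rps23 (chr2:23814502-23814531, plus strand): tgggtccttcctgCCTCTCTTCTCTCTTTC
Rpl22 (chr5:168117946-168117975, plus strand): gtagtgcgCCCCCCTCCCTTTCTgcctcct
Rpl13a (chr1:104748899-104748928, minus strand): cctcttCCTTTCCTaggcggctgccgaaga
Rplp0 (chr12:46718376-46718405, minus strand): gaccgcaccgcaCTTCTCTCgccaggcgtc
Rpl12 (chr3:36661925-36661954, plus strand): ggagcaacatccgtCTTTTCggctttcggt
Rpl39 (chrX:121195882-121195911, minus strand): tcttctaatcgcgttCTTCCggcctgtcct
Rpl3l (chr10:14258431-14258460, plus strand): gacctctggtgcctggtggggaggtCCCTT
Rps27l (chr8:76443643-76443672, plus strand): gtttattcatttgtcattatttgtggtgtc
In Rps23 the run is 21 bases long and goes on past the window. In Rpl13a the bases before the capitals are pyrimidines too, so the marked run is the end of a longer one. In Rpl3l the run begins 10 bases after the start, and Rps27l has none in these letters. Rpl3 and Rpsa, which are described below but not shown here, also have none.

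A run of this kind was found in 25 of the 37 genes (67.6%) and in 28.9% of the 33469 RefSeq promoters. In the 300 bases from 250 before to 50 after the start, read on both strands, the Ets motif CCGGAAG was found in 9 genes (24.3%, against 8.75% of all promoters), the Yy1 motif AAGATGG in 8 (21.6%, against 7.01%) and the Sp1 motif GGGCGG in 23 (62.2%, against 33.1%). The Ets motif read on the other strand, CTTCCGG, begins with 5 pyrimidines and can overlap a run, as it does in the Rpl39 window above. A match is a description of sequence only. Among the genes measured on all arrays, the median difference between spleen lymphocyte and the other tissues was 1.44 on the log2 scale for the 23 genes with the run and 1.36 for the 11 without it, with ranges that overlap widely.

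Array medians over all probe sets ran from 213 to 309. Summed marker signals went with the tissue labels. Spleen lymphocyte markers summed to 63085 to 69277 in their own tissue and at most 12337 elsewhere, and liver markers to 390346 to 427014 against 16241. The sums were 58239 to 72546 against 9663 for hypothalamus and 78388 to 81390 against 7795 for kidney. They were 150983 to 174761 against 13405 for pituitary and 48056 to 156615 against 13588 for bone. Counts of markers at 100 or more did not separate tissues, since bone also had 9 of 9 spleen lymphocyte markers. The 10-month hypothalamus array stood apart in its summed liver markers, 16241 against 1519 to 3121 on the other hypothalamus arrays, and the bone arrays held many blood cell precursors, with a summed neutrophil precursor signal of 49533 to 139287. Summed red blood cell precursor markers were 43210 to 75328 in bone, 17059 to 32283 in spleen lymphocyte and at most 15762 in the other tissues. A gene at a lower level in a bulk tissue can mean fewer cells that express it or less RNA per cell, and these cannot be told apart here.

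Of the 50 members, 43 had a signal of at least 100 on all 24 arrays (29 of the large and 14 of the small subunit), and 39 of these never fell below 2000. The median of their median signals was 8832. The 7 that fell below 100 on some array were Rpl3l, Rps27l, Rps4y2, Rpl30 and the dimmer probe sets of Rpl14, Rpl7 and Rps24. All 50 were among the 14031 probe sets tested.

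After each probe set was set to its mean over the 24 arrays, the median member stood on the log2 scale at 1.29, 1.31, 0.96 and 0.94 on the spleen lymphocyte arrays of 4, 10, 18 and 24 months. It stood at 0.11, 0.40, 0.32 and 0.25 in pituitary and at 0.09, 0.14, 0.04 and 0.37 in bone. These tissues are ordered spleen lymphocyte first, while pituitary and bone overlap. Below them came liver, at −0.46, −0.08, −0.08 and −0.57, and kidney, at −0.54, −0.49, −0.38 and −0.43. The hypothalamus arrays, at −0.72, −0.61, −0.21 and −0.82, overlapped both. The median of all tested probe sets lay between −0.18 and 0.04 as a mean over the 4 arrays of each tissue.

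**Figure D1:**
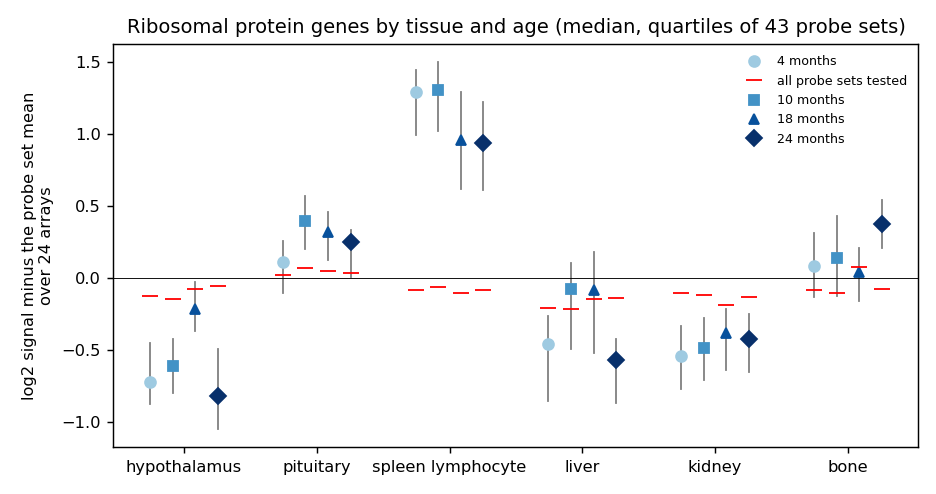
Median level of the 43 ribosomal protein probe sets with a signal of at least 100 on every array, as log2 relative to each probe set's mean over the 24 arrays, by tissue. Points stand for the 4 ages, grey lines join the quartiles over the members, and red dashes mark the median of all 14031 tested probe sets. The 4 spleen lymphocyte arrays sit between 0.94 and 1.31 and all other arrays at 0.40 or below.

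Averaged over the 4 arrays, the members' median was 1.12 ± 0.20 in spleen lymphocyte, 0.27 ± 0.12 in pituitary, 0.16 ± 0.15 in bone, −0.30 ± 0.25 in liver, −0.46 ± 0.07 in kidney and −0.59 ± 0.27 in hypothalamus (SD over 4 ages, n = 4 each). Neighbours in this order were compared member by member. The share of all probe sets that separate in this way was not counted, so these counts describe the members without a background. For 32 of 43 members all 4 spleen lymphocyte arrays lay above all 4 pituitary arrays, and the reverse held for 1. Pituitary and bone did not separate as tissues, with 3 members entirely higher in pituitary and 7 entirely higher in bone. Bone lay entirely above liver for 23 members and below it for 0, whereas liver and kidney each led for 10 members. Kidney lay entirely above hypothalamus for 6 members and below it for 3.

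The first question was how each tissue compared with the mean of the other 5, which was tested with limma on log2 signals with age as a term. Adjusted p-values in the text are limma's with Benjamini-Hochberg adjustment over the 14031 probe sets, errors of log2 differences are standard errors, and a member was called at an adjusted p under 0.05. The 6 comparisons share all 24 arrays, so a high level in 1 tissue lowers the others by construction. The members' median difference is given beside that of all probe sets.

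In spleen lymphocyte, the cells that recognise antigen, ribosomal protein mRNAs were higher than in the other tissues almost throughout the family. Of the 50 members 42 rose (27% of all probe sets were called higher) and 2 fell (32% were called lower). The members' median difference was 1.32 on the log2 scale, against −0.07 for all probe sets. The large and small subunits moved alike, with medians of 1.33 and 1.32. Spleen lymphocyte was the tissue with the highest mean for 37 of the 43 members measured on all arrays, a count not made for all probe sets. For 30 of the 43 all its 4 arrays lay above the other 20, which held for 10.1% of the 6942 probe sets with such signals.

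Rpl13a, a large-subunit protein that in human cells also silences the translation of inflammatory mRNAs, showed the widest gap. Its signal in spleen lymphocyte was 24584, 29832, 30151 and 24791 at 4, 10, 18 and 24 months. In kidney it was 3068, 3364, 3563 and 3542, and in pituitary 5143, 5213, 5095 and 5314. Liver arrays lay between 4269 and 5544, hypothalamus arrays between 3749 and 7014, and bone arrays between 5879 and 7382. All 4 spleen lymphocyte arrays stood far above the other 20, and kidney was lowest. The log2 difference from the other tissues was 2.46 ± 0.12 (limma adjusted p = 7.43e-13).

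Rpl22, a large-subunit protein that mice need to form alpha-beta T cells, followed with 33961, 43278, 35024 and 30832 in spleen lymphocyte. Its hypothalamus signals were 3757, 4089.7, 5119.8 and 5152, the lowest of the tissues, and the remaining 16 arrays ranged from 6827 to 15137. The groups did not overlap. Rpl22 was higher in spleen lymphocyte by 2.08 ± 0.13 (limma adjusted p = 2.94e-11).

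Rps23, which lines the decoding centre, had signals of 54963, 61892, 50622 and 45066 in spleen lymphocyte, against 9384, 9384, 12042 and 10548 in kidney and 11764, 14335, 16882 and 16102 in hypothalamus. Rpl23a, at the mouth of the exit tunnel where the nascent protein emerges, had 31149, 32204, 27506 and 24036 in spleen lymphocyte and 4205, 4640.4, 5238 and 5089 in kidney. Every spleen lymphocyte array lay above all 4 kidney arrays for both genes. The differences from the other 5 tissues were 1.66 ± 0.11 for Rps23 and 1.88 ± 0.14 for Rpl23a.

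Proteins with known further roles followed the family. Rpl5 and Rpl11, which carry the 5S ribosomal RNA and bind the p53 regulator Mdm2, were higher by 1.58 ± 0.12 and 1.41 ± 0.13. Rpl5 had the highest correlation with the median of the other members over the 24 arrays (r = 0.98), and 34 of the 43 members reached 0.8, although these points share tissue and array. The share of all probe sets that reach 0.8 with that median was not counted. Rpl3 and Rpl4, beside the peptidyl transferase centre and in the exit tunnel, were both higher by 1.56 ± 0.12. Rps3, at the entry of the mRNA channel, was higher by 1.51 ± 0.14, Rplp0 by 1.39 ± 0.16 and Rps6, the target of S6 kinase, by 1.10 ± 0.12. The call of Rps6 was lost after quantile normalization, when its difference was 0.27. Over the family, quantile normalization left 37 members higher (28.9% of all probe sets) and 1 lower (30.1%) and brought the median to 0.64. Scaling the arrays to the same median gave 44 (31.7%) and 1 (27.8%) with a median of 1.45.

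**Figure D2:**
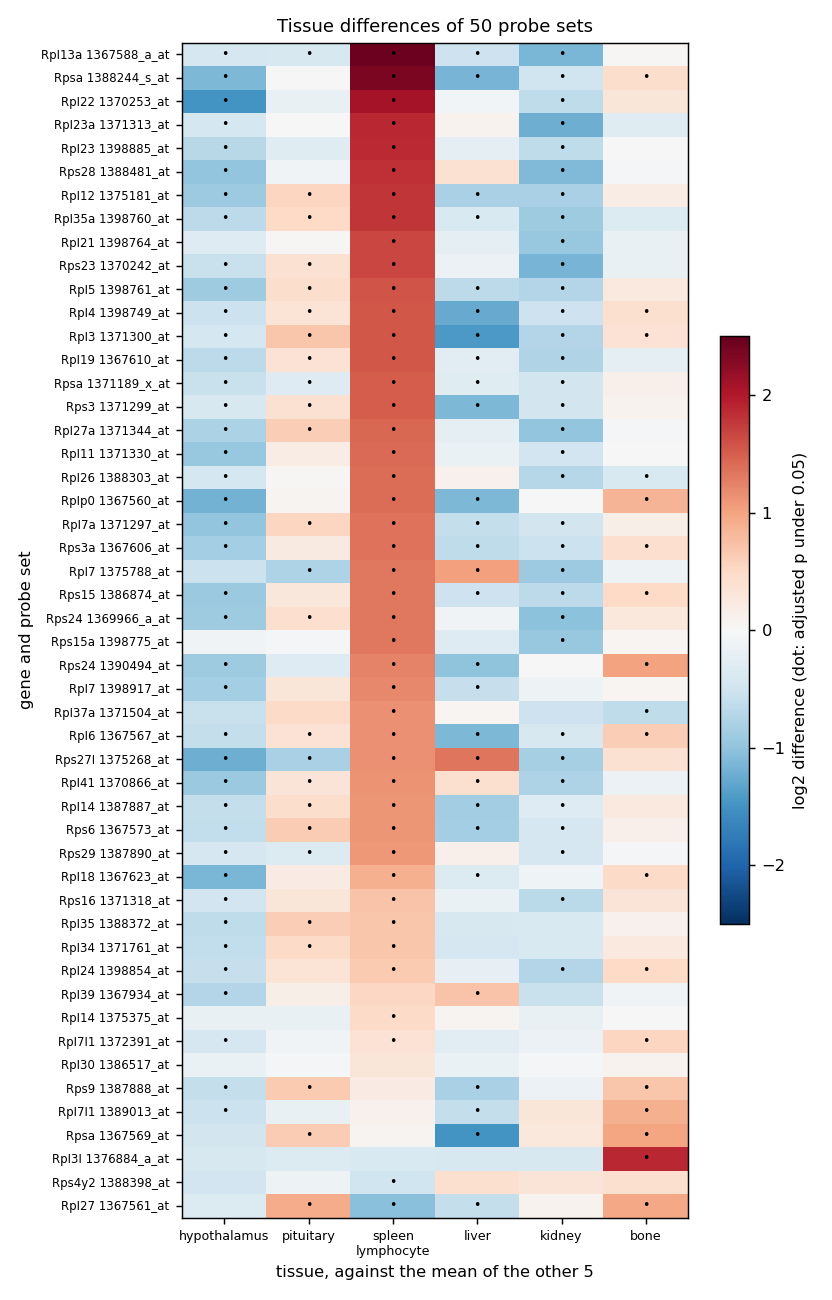
Log2 difference of each of the 50 member probe sets (rows, by gene and probe set) between a tissue (columns) and the mean of the other 5, from the fit with tissue and age. Dots mark an adjusted p under 0.05. The spleen lymphocyte differences reach 2.46 for Rpl13a, and those of Rpl27 and Rps4y2 were called lower.

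The spleen lymphocyte arrays, together with those of liver, also had high ratios of the 3′ to the 5′ probe sets of Gapdh, a measure of RNA or labelling quality. On the log2 scale these were 2.40, 1.78, 1.17 and 1.16 in spleen lymphocyte and 1.77, 1.75, 2.06 and 0.74 in liver, against 0.12 to 0.80 on the other 16 arrays. The members were highest in the first of these tissues and below average in the second. The part of the ratios in the result was not tested.

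The other members of the large subunit called higher in spleen lymphocyte differed mostly in degree. Rpl12, beside the stalk, had 28177, 28668, 29490 and 27968 in spleen lymphocyte and 4952, 7451, 6960.0 and 6207 in liver. Rpl23, a large-subunit protein, had 42678, 44859, 30945 and 31976 in spleen lymphocyte and at most 14761 on the other 20 arrays. The differences were 1.80 ± 0.12 and 1.86 ± 0.14, and neither gene overlapped with another tissue. Rpl35a followed with 1.79, Rpl21 with 1.68, Rpl19 with 1.55, Rpl27a with 1.44, Rpl26 with 1.40, Rpl7a with 1.36, Rpl37a with 1.15, Rpl6 with 1.14, Rpl41 with 1.12 and Rpl18 with 0.88. The smallest called differences among the members of this subunit that never fell below 2000 were those of Rpl35 (0.70), Rpl34 (0.69) and Rpl24 (0.66). Rpl24, which bridges to the small subunit, had 8506, 11900.3, 7082 and 7063 in spleen lymphocyte and overlapped with bone, at 6489 to 9435, and with pituitary.

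In the small subunit Rps28, which lies by the mRNA exit, had the largest difference after the Rpsa probe set described below. Its signals were 37800, 35727, 32997 and 27454 in spleen lymphocyte and 6492, 6168, 5504 and 6300.0 in kidney, and the difference was 1.83 ± 0.21. Rps29, a small zinc-binding protein of the head, had 50548, 52529, 44559 and 39294 against at most 29939 elsewhere (1.09 ± 0.14). Rps3a and Rps15 were higher by 1.35 ± 0.13 and 1.33 ± 0.17, Rps15a by 1.32 ± 0.18 and Rps16 by 0.72 ± 0.14. Rps16, near the decoding site, had 19598, 19014, 13611 and 14939 in spleen lymphocyte and 12526, 13518, 11496 and 15227 in bone, so these tissues overlapped.

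A few members did not share the spleen lymphocyte pattern. Rpl27, a protein of the large subunit, fell by 1.05 ± 0.19 in spleen lymphocyte (limma adjusted p = 6.03e-05). Its signals were 2741, 6492, 3207 and 3725 there, against 11111, 12152, 13346 and 11425 in pituitary and 10186, 10479, 12618 and 16981 in bone. All 4 spleen lymphocyte arrays lay below every array of pituitary, kidney and bone. They overlapped with liver, at 3887, 8151, 5520.0 and 3433, and with hypothalamus, at 5699, 7039.8, 7484 and 3664. Its correlation with the median of the other members was −0.06, the lowest of the 43.

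Rps9, a small-subunit protein at the mRNA entry side, differed by 0.20 ± 0.14 in spleen lymphocyte (limma adjusted p = 0.23). Its signals there, 5888, 10502, 7117 and 6757, overlapped with 8105, 11012, 10342 and 9165 in pituitary and with 8688, 9692, 9193 and 11734 in bone. Rpl39, a small protein of the exit tunnel, was at 1038, 946, 561 and 1099 in spleen lymphocyte and at 941, 960.0, 1042 and 1035 in liver. For both genes the spleen lymphocyte arrays overlapped with those of another tissue. Rpl39 missed the threshold there (0.51 ± 0.30, limma adjusted p = 0.15).

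**Figure D3:**
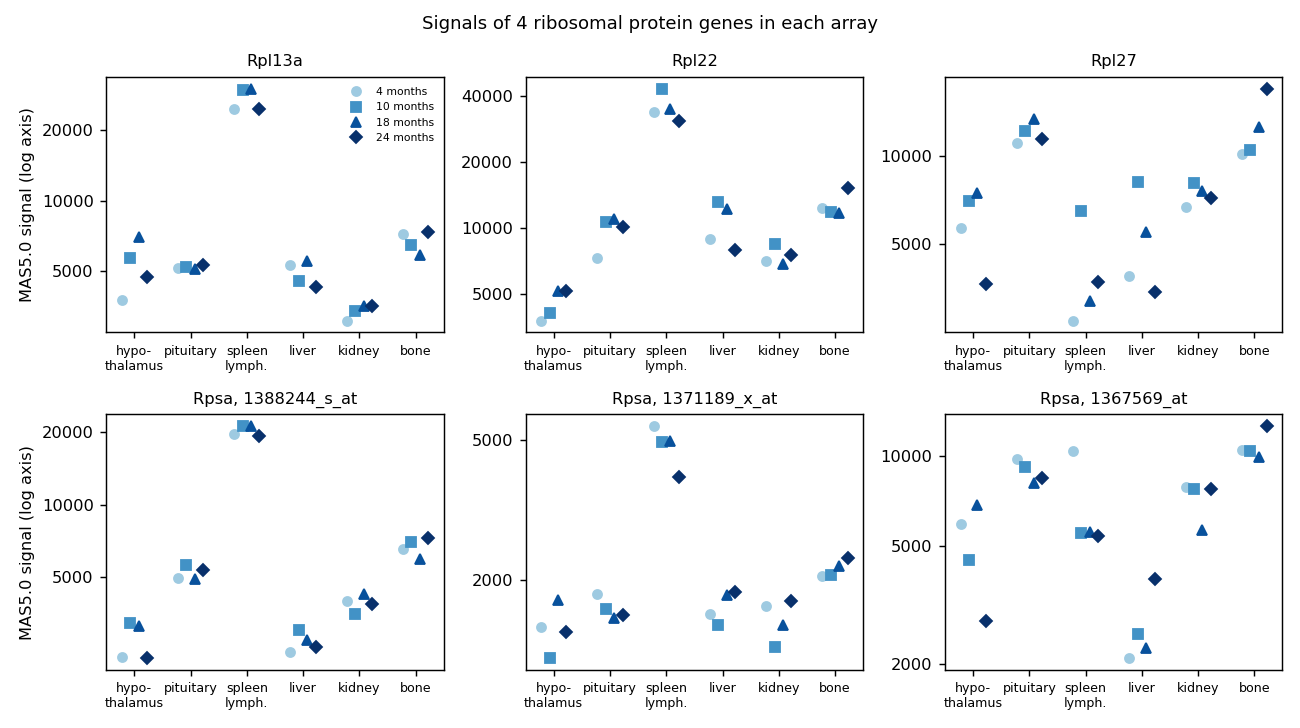
Signal on each of the 24 arrays, on a log axis, for Rpl13a, Rpl22, Rpl27 and the 3 probe sets of Rpsa, by tissue and with 1 point per age. Rpl13a, Rpl22 and the Rpsa probe sets with the suffixes s and x are highest on all 4 spleen lymphocyte arrays, whereas Rpl27 is lowest at 2741 on the 4-month spleen lymphocyte array.

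Rpsa, the laminin receptor precursor that sits on the small subunit, has 3 probe sets that disagreed. The probe set with the suffix s had signals of 19630.2, 21234, 21187 and 19247 in spleen lymphocyte and 2328, 3202, 3130.4 and 2295 in hypothalamus. It was higher in spleen lymphocyte by 2.36 ± 0.10 (limma adjusted p = 8.23e-14), and the probe set with the suffix x, at 3941 to 5491 there and 1199 to 2311 on all other arrays, by 1.52 ± 0.11. The plain probe set, with no such suffix, had 10393, 5536, 5558 and 5400.3 in spleen lymphocyte, 10522, 10455, 9934 and 12659 in bone and 9779, 9237, 8134 and 8469 in pituitary. Its spleen lymphocyte arrays overlapped with those of bone, pituitary, kidney and hypothalamus, and the difference was 0.08 ± 0.20 (limma adjusted p = 0.76). It turned to −0.14 without the 4-month spleen lymphocyte array and to −0.13 after quantile normalization. The suffixes s and x mark probe sets that can bind related sequences, so which copy or transcript the first pair of probe sets measured is uncertain.

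Rpl14, Rpl7 and Rps24 also had a bright and a dim probe set each, and these agreed in direction in spleen lymphocyte. Rps24, mutated in human Diamond-Blackfan anaemia, was higher by 1.32 and 1.23, Rpl7 by 1.20 and 1.33, and Rpl14 by 1.10 and 0.48. Their dim probe sets reached at most 496 (Rps24), 461 (Rpl7) and 198 (Rpl14), all on spleen lymphocyte arrays.

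In pituitary, the gland that secretes growth hormone and prolactin, 20 of the 50 members rose (28.8% of all probe sets were called higher) and 5 fell (20.4%). The members' median was 0.26 against 0.05 for all probe sets. Rpl27 rose by 0.93 ± 0.19, Rpl3 by 0.69 ± 0.12 and Rps9 by 0.66 ± 0.14. Rpl3 had signals of 18740.0, 22946, 18492 and 19538 in pituitary, all below the 31859 to 33687 of spleen lymphocyte. They overlapped with bone, at 14681 to 19292, through the highest bone array. Rps27l fell by 0.81, a dim probe set of Rpl7 by 0.78, Rpl13a by 0.41, Rps29 by 0.34 and the x probe set of Rpsa by 0.33. The bright Rpl7 probe set did not share this fall, its mean log2 signal in pituitary (13.40) being exceeded only in spleen lymphocyte (14.15). The split depended on scaling. Quantile normalization gave 31 higher (24.8% of all probe sets) and 3 lower (25.5%). Scaling to the same median gave 6 higher (19.3%) and 9 lower (26.8%) while shifting the median of all probe sets by −0.15.

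In bone, 16 members rose (24.6% of all probe sets) and 2 fell (25.2%), with a median of 0.17 against −0.02. Rpl3l was called higher, but its signal was below 100 on 18 of the other 20 arrays and was set to 100 there, so the size of its difference depends on that floor (1.89 with the floor of 100 and 2.71 with a floor of 50). The plain Rpsa probe set rose by 0.98 ± 0.20, Rpl27 by 0.97 ± 0.19 and Rplp0 by 0.84 ± 0.16. The Rplp0 signals in bone were 10610.2, 11275, 9979 and 13335, below 13526 to 16431 in spleen lymphocyte at every age and far above 3719, 3233, 5085 and 2386 in hypothalamus. Rpl37a fell by 0.63 (limma adjusted p = 0.031), with bone signals of 21269, 18443, 17004 and 6407, and Rpl26 by 0.38 (limma adjusted p = 0.034). The low 24-month value carried Rpl37a, whose difference was −0.31 (limma adjusted p = 0.32) without that array. Quantile normalization gave 24 members higher (23.1% of all probe sets) and 1 lower (28.5%) in bone. Scaling to the same median gave 10 (20.5%) and 5 (29.2%).

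In liver, where most tissue is hepatocytes, 24 members fell (38.4% of all probe sets were called lower) and 4 rose (19.6%). The members' median of −0.33 compares with −0.20 for all probe sets. The plain Rpsa probe set fell by 1.50 ± 0.20, Rpl3 by 1.43 ± 0.12 and Rpl4 by 1.26 ± 0.12. Rpl3 stood at 4284, 5899.6, 5662 and 7999.8 in liver, and Rpl4 at 2528, 3384, 3457 and 2901. For Rpl3 the 4 liver arrays overlapped with kidney, at 7971 to 9447, only through the 24-month array. Rps6 fell by 0.84 ± 0.12, Rps3 by 1.13 ± 0.14 and Rplp0 by 1.11 ± 0.16. The 4 that rose were Rps27l (1.35 ± 0.20), the dim Rpl7 probe set (1.02), Rpl39 (0.72, limma adjusted p = 0.047) and Rpl41 (0.40), the last a very short basic peptide. The bright Rpl7 probe set did not share this rise. Its mean log2 signal was 12.66 in liver, above hypothalamus (12.43) and below the 13.05 to 14.15 of the other tissues. The Rpl39 call was lost with a floor of 50, with no filter and in 17 of the 24 fits that left out a single array, the 4 liver arrays among them, and Rpl41 stood at −0.03 after quantile normalization. Quantile normalization gave 40 members lower (33.7% of all probe sets) and 4 higher (24%) in liver. Scaling to the same median gave 18 lower (32.4%) and 6 higher (24.3%).

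In kidney, 33 members fell (30.9% of all probe sets) and 0 rose (19.8%, with 1 member higher at an unadjusted p under 0.05). Array weights, which let limma down-weight single arrays, gave 36 lower (36.8% of all probe sets) and 3 higher (23.3%). The median was −0.51 against −0.16. Rpl23a fell by 1.22 ± 0.14, Rps23 by 1.17 ± 0.11, Rpl13a by 1.15 ± 0.12 and Rps28 by 1.10 ± 0.21. For Rpl13a, Rpl21 and Rpl23a, 3 of the 43 members, all 4 kidney arrays lay below the other 20, where 1.4% of the probe sets with such signals did. Rplp0 in kidney differed by 0.01 ± 0.16.

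In hypothalamus, a tissue of neurons and glia, 40 members fell (29.2% of all probe sets) and 0 rose (24.8%, with 0 higher at an unadjusted p under 0.05). After quantile normalization, however, 2 were called higher (24.1% of all probe sets) and 25 lower (31.3%). The median was −0.59 against −0.12. Rpl22 fell by 1.50 ± 0.13, Rps27l by 1.22 ± 0.20 with its signals below 100 set to 100, Rplp0 by 1.19 ± 0.16 and Rpl18 by 1.14 ± 0.14. Rpl18, a core protein of the large subunit, had 4378, 4668, 5797 and 3106 in hypothalamus. The smallest difference was that of Rps15a, at −0.08.

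Relatives of other ribosomal protein genes were among the dimmer members. Rpl3l, which replaces Rpl3 in striated muscle of mouse, had signals of 649, 463, 183 and 353 in bone, and elsewhere passed 100 on 2 arrays only, those of pituitary at 10 months (115) and of spleen lymphocyte at 24 months (103). All 4 bone arrays lay above the other 20. Skeletal muscle markers were split in bone, where 8 of 13 probe sets were called higher and 5 lower. Of 11 such markers on the array 9 reached 100 there, and their summed signal, 5435 to 10794 in bone, overlapped with the 2330 to 11007 of the other tissues. Among those that were higher, Acta1, the skeletal actin, stood at 628, 2684, 2909 and 1896 in bone and reached at most 512 elsewhere, and Ckm, muscle creatine kinase, stood at 514, 1814, 1807 and 1229 against at most 370.2. Rpl3l was highest on the 4-month bone array, where Acta1 and Ckm were lowest, and the part of muscle in the result was not tested.

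Rps27l, which p53 induces in human cells, was at 650.4, 407, 494 and 496 in liver and 349.8, 591, 512 and 376 in spleen lymphocyte, and was called higher in both (1.35 ± 0.20 and 1.14 ± 0.20). Its hypothalamus signals were 26.3, 47.8, 105 and 164. In bone it was at 191, 191, 345 and 561, where the 24-month array lay within the spleen lymphocyte range. Rpl7l1, the relative of Rpl7, was higher in bone by both its probe sets (0.89 and 0.55). The first had 1403, 1329, 1191 and 1239 in bone against 989, 818, 743 and 755 in spleen lymphocyte, and was the only 1 of the 43 members for which all 4 bone arrays lay above the other 20 (3.92% of probe sets with such signals). The second was also called higher in spleen lymphocyte. Leaving out single arrays gave differences of 0.33 to 0.39 there, and the call was lost in 4 of 24 fits. Rpl30, a large-subunit protein whose probe set read 19.5 to 233, was called in 0 of the 6 tissues, with differences from −0.17 to 0.31 and adjusted p-values of 0.18 or more. Rps4y2, with 153, 53, 106 and 159.7 in spleen lymphocyte, was called lower there (−0.49, limma adjusted p = 0.040), a call lost under quantile normalization, under scaling to the same median, with no filter, without the age term and in 14 of the 24 fits that left out a single array.

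The second question was age. Over all tissues 0 of the 50 members were called between 24 and 4 months (0.0143% of all probe sets were), with 0 at an unadjusted p under 0.05 and a lowest limma adjusted p of 0.87. The F test over the 4 ages also called 0 (0.0143% of all probe sets), with 3 members at an unadjusted p under 0.05, namely Rps4y2, Rps24 and Rps15a. Within tissues, the arrays of 18 and 24 months were set against those of 4 and 10 months, with the spread shared over tissues. In simulated data for spleen lymphocyte, with noise drawn independently for each array, this comparison recovered 27 of 200 shifts of 1 on the log2 scale. A member that was not called may therefore still have changed. In pituitary (0% of all probe sets called), liver (0.135%) and kidney (0%) 0 members were called, with 0 at an unadjusted p under 0.05. The test of whether the late difference varied between tissues called 0 members (1.8% of all probe sets), with 3 at an unadjusted p under 0.05.

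The hypothalamus had 1 call, for Rpl39, which rose with age (2.89% of all probe sets were called higher). Its signals were 157, 364, 667 and 896 at 4, 10, 18 and 24 months, each age above the one before. The late difference was 1.69 ± 0.40 (limma adjusted p = 0.021). It was 1.09 without the 4-month array (adjusted p = 0.33) and 1.48 without the 24-month array (adjusted p = 0.23). The 3′ to 5′ ratio of Actb on these arrays was 1.89, 3.09, 1.21 and 1.10 on the log2 scale, and its part in the result was not tested. In the other tissues Rpl39 had no such order, with 638, 622, 263 and 482 in kidney and 515, 568, 1071 and 495 in bone, and the difference between tissues missed the threshold (adjusted p = 0.18).

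In bone 1 member fell with age, Rpl3l (0.285% of all probe sets were called lower), by 1.11 ± 0.24 (limma adjusted p = 0.049). The call did not hold under quantile normalization (limma adjusted p = 0.053), with a floor of 50 (0.21) or when single arrays of other tissues were left out, and without the 18-month bone array the difference was −0.63 (adjusted p = 0.37). Rps27l was higher late in bone by 1.21 (limma adjusted p = 0.090), below the threshold of significance.

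**Figure D4:**
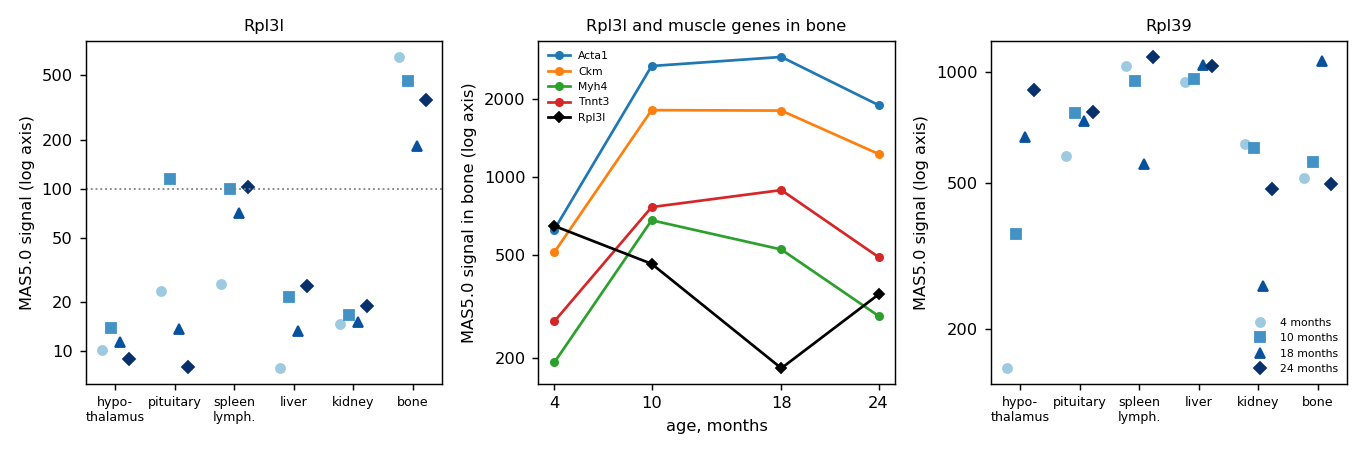
Signals of Rpl3l and Rpl39 on the 24 arrays by tissue and age (left and right, log axes; the dotted line marks 100), with Rpl3l and 4 muscle genes on the bone arrays against age in months (middle). Rpl39 goes from 157 to 896 in hypothalamus, and Rpl3l from 649 to 353 in bone by way of 183 at 18 months.

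In spleen lymphocyte 0 members were called between late and early ages (0.0428% of all probe sets were called lower), but 6 were lower at an unadjusted p under 0.05, with a lowest limma adjusted p of 0.35. The median of the members was −0.29, against 0 for all probe sets. Rpl35, near the exit tunnel, had 21704, 20606, 10362 and 11192 and a late difference of −0.97. Rpl34 had 18286, 18457, 9339 and 13046 and a difference of −0.73. For both genes the 18- and 24-month arrays lay below those of 4 and 10 months. Summed neutrophil precursor markers on these arrays were 1771, 4186, 16646 and 6418, and the Actb 3′ to 5′ ratios were 3.74, 2.63, 2.33 and 1.88 on the log2 scale. Their part in the lower late values was not tested.

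Between consecutive ages, with 1 array on each side and no test, members were counted that differed at least 2-fold while both arrays read 100 or more. From 18 to 24 months in hypothalamus 6 members were lower (1.53% of all probe sets), namely Rplp0, Rpl27, Rpl6, Rpsa (the plain probe set), Rps3 and Rpl35. Of the 43 members measured throughout, 36 were lower at 24 than at 18 months there, with a median of −0.56, after 41 had been higher at 18 than at 10 months with a median of 0.42. In liver, 4 members were lower at 24 than at 18 months (1.23%), with Rpl37a at 31619 and then 11036, Rps28 at 20408 and then 8385, and Rpl34 and Rps15a with differences of −1.13 and −1.12. In the same phase 41 of 43 members were higher in bone with a median of 0.36, where Rpl37a and Rpl39 were lower by 2-fold (4.83%). The median of all tested probe sets was 0 in these phases, with signals below 100 set to 100. The share of all probe sets above or below 0 was not counted, and with 1 array per age an array cannot be told from an age.

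Rpl27 passed the 2-fold limit between 4 and 10 months in spleen lymphocyte (1.52%) and liver (1.11%), being higher at 10 months in both, and again between 10 and 18 months in spleen lymphocyte (1.02%), where it was lower. From 4 to 10 months 39 of 43 members in liver and 36 of 43 in pituitary were higher. The members' medians were 0.39 and 0.32, against 0 for all tested probe sets with low signals set to the floor. Here too, the share of all probe sets above or below 0 was not counted. Whether other bright probe sets shifted alike was not tested. Rpl39 passed the 2-fold limit from 4 to 10 months in hypothalamus (0.777%), upwards, and from 10 to 18 months in kidney (2.67%), downwards. In bone, Rps4y2 went from 380 to 118 between 4 and 10 months (4.23%) and to 256 at 18 months (5.95%), and Rpl3l was lower at 18 than at 10 months (1.43%).

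The genes that build and serve ribosomes were described from lists, and their counts stand beside the shares of all probe sets called in the same comparison, which were 27% higher and 32% lower in spleen lymphocyte, 19.6% and 38.4% in liver, 24.6% and 25.2% in bone, 19.8% and 30.9% in kidney, 24.8% and 29.2% in hypothalamus and 28.8% and 20.4% in pituitary. Of the 20 probe sets (14 genes) of translation factors and other mRNAs with a terminal oligopyrimidine tract, the spleen lymphocyte comparison had 19 higher and 0 lower. Their median there was 1.66, against −0.07 for all probe sets. Eif3f, a subunit of initiation factor 3, was higher by 2.35 ± 0.12 and Rack1, a scaffold on the small subunit, by 1.64 ± 0.12. In liver 18 of the 20 fell and 0 rose (median −0.99), with Eef1g, an elongation factor subunit, lower by 1.79 ± 0.16. In hypothalamus 14 fell and 2 rose (median −0.45), in kidney 12 fell and 1 rose (median −0.50), in pituitary 7 rose and 3 fell, and in bone 9 rose and 1 fell.

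Of 40 probe sets (37 genes) for ribosome assembly, the spleen lymphocyte comparison had 28 higher and 2 lower (median 0.87). Nop58 and Fbl, components of the nucleolar methylation particles, were higher by 1.92 ± 0.21 and 1.73 ± 0.14, while Sbds, which releases Eif6 from the large subunit, fell by 0.66 ± 0.22. In liver 29 of the 40 fell and 2 rose (median −0.65), and in bone 13 rose and 2 fell (median 0.17). RNA polymerase I genes, which transcribe the ribosomal RNA, rose for 10 of 18 probe sets in spleen lymphocyte and fell for 2, with a median of 0.49. In the growth signalling list of 29 probe sets 13 rose and 1 fell there (median 0.34), with Myc, a transcription factor for ribosome genes, higher by 3.52 ± 0.16.

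Proliferation genes did not rank the tissues as the members did. All 26 probe sets of the list were called higher in bone (median 2.53). Spleen lymphocyte had 16 of the 26 higher and 1 lower (median 0.86). The marker of dividing cells Mki67 was higher by 4.55 ± 0.14 in bone and by 2.57 ± 0.14 in spleen lymphocyte. The members, in contrast, had medians of 0.17 in bone and 1.32 in spleen lymphocyte. The 80 probe sets of mitochondrial ribosomal proteins, which serve the organelle's own ribosome, had 16 higher and 28 lower in spleen lymphocyte, with a median of −0.06 against −0.07 for all probe sets, so that they stood near the background there. They had 29 higher and 9 lower in liver (median 0.21 against −0.20). In bone 3 of these rose and 38 fell, and in kidney 30 rose and 7 fell.

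**Figure D5:**
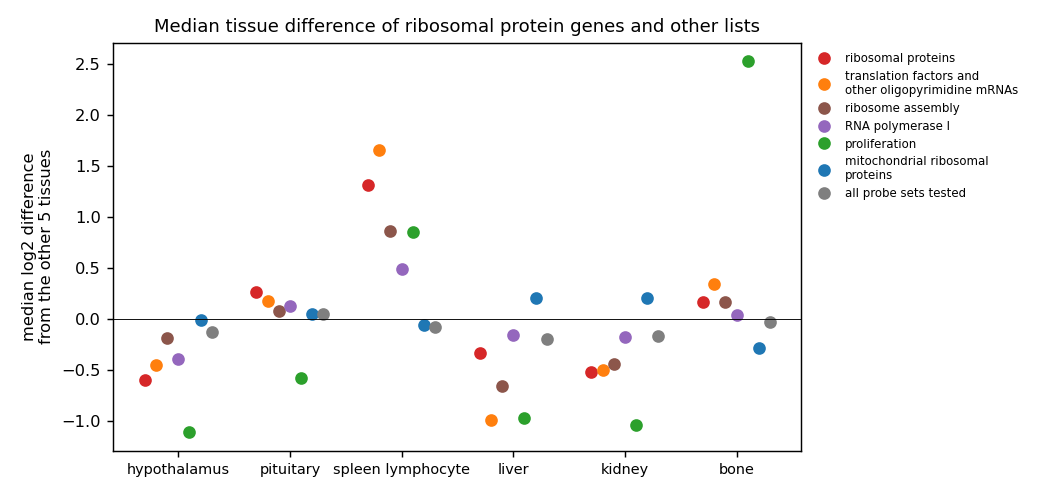
Median log2 difference between each tissue and the mean of the other 5 for the ribosomal proteins and the gene lists of translation factors, ribosome assembly, RNA polymerase I, proliferation and mitochondrial ribosomal proteins, with all tested probe sets in grey. In spleen lymphocyte the median is 1.32 for ribosomal proteins and −0.06 for mitochondrial ribosomal proteins.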

How the data were processed

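RNA of 24 samples was measured, each pooled from 10 rats. The deposited values are signal intensities that the authors computed with MAS5.0 and scaled to a target of 500, with no further normalization here, its version not given in the sources used here. Probe sets were named from the array annotation, in which 12783 carried 1 symbol, 312 several and 2771 none, and 48 of the 50 members had a gene identifier in RefSeq. Signals below 100 were set to 100 and log2 was taken. The 14031 probe sets with at least 100 on 4 arrays were fitted with limma 3.58.1 in R 4.3.3 (tissue and age, 15 residual degrees of freedom, or late and early age within tissue, 12), with Benjamini-Hochberg adjustment per contrast. The fits were tested on simulated data with 200 shifted probe sets and noise drawn independently for each array. A shift of 1 on the log2 scale was recovered for 169 in the spleen lymphocyte comparison and for 27 in its late against early comparison. A shift of 0.5 was recovered for 37 and 0. Python 3.11.15 (numpy 2.4.6, pandas 2.3.3, scipy 1.17.1, matplotlib 3.10.9) did the rest. The members and gene lists were chosen with earlier results of these data known. Members named were paralogs, the extremes of each comparison, members with 2-fold changes, genes whose probe sets differ and members with known further roles. The p-values measure the spread between arrays of different age. Alternatives were the scaling, the floor, a pseudocount of 50, the filter, 1 probe set per gene, array weights, and each array left out. The number of arrays limits the precision. Adrenal arrays, detection calls and change p-values were not used here.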

Additional observations from a re-analysis of the deposited data

Results flagged for a closer look

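Sets of 4 arrays of 1 tissue were taken for named member probe sets and for the members' median. In 12 of these 210 sets, a single array stood far from the other 3, where chance gives about 1 in 20. As they share arrays, the sets are not independent. The sets have 1 array per age, so age and array cannot be told apart.

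Rpl3, beside the peptidyl transferase centre, had 13715 in hypothalamus at 18 months against 9311 to 9423 at the other ages. The dim Rpl7 probe set had 238 in hypothalamus at 24 months, against 36.6 to 52.8. In pituitary Rpl23 had 9117 at 4 months against 11125 to 11517, and Rps27l had 191 at 18 months against 127 to 136. There, Rpl3l had 115 at 10 months against 8.05 to 23.6. The Rpl7l1 probe set that is dimmer in bone had 429 in pituitary at 4 months against 584 to 613, and the dim Rps24 probe set had 195 at 24 months against 143 to 145.

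The plain Rpsa probe set had 10393 in spleen lymphocyte at 4 months against 5400.3 to 5558, and 5641 in kidney at 18 months against 7737.5 to 7858. Rps27l had 176 in kidney at 18 months against 130.4 to 137. In bone, Rpl39 had 1071 at 18 months against 495 to 568, and Rps6 had 18294 at 24 months against 14945 to 15234.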

How the results depend on the processing

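Values are percentages of the members unless given as log2 differences. Quantile normalization moved the share higher or lower in hypothalamus to 4 and 50 (from 0 and 80), in pituitary to 62 and 6 (from 40 and 10), the share lower in spleen lymphocyte to 2 (from 4), in liver to 80 (from 48) and in bone to 2 (from 4). Scaling to the same median gave 12 and 18 in pituitary, 2 lower in spleen lymphocyte and 20 higher and 10 lower in bone (from 32 and 4). It gave 2 higher in kidney (from 0), where 21.9% of all probe sets were higher. Without a filter the share lower in spleen lymphocyte was 2, and a floor of 50 or log2(signal + 50) gave 6 lower in pituitary. Array weights gave 6 higher in kidney (23.3% of all probe sets) and 8 lower in bone (29.9%), and 1 probe set per gene gave 6.82 lower in bone. Without the 10-month hypothalamus, 18-month kidney and 18-month bone arrays it was 2 there. Keeping the plain probe sets with 100 on all arrays, a choice made after seeing the data, gave 2.56 lower in pituitary and spleen lymphocyte and 5.13 higher in liver. Late against early, the hypothalamus share higher was 4 (from 2) with a floor of 50 or log2(signal + 50), and the bone share lower was 0 (from 2) with quantile normalization, either of those floors, the filter of 12 arrays, array weights, without those 3 arrays and with the plain probe sets. The causes were not tested.

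Leaving out 1 array at a time gave 24 to 44 higher and 4 to 12 lower in pituitary, 80 to 86 and 2 to 6 in spleen lymphocyte, 4 to 8 and 38 to 54 in liver, 0 to 2 and 58 to 70 in kidney, 20 to 36 and 0 to 10 in bone, and 70 to 84 lower in hypothalamus. Late against early it gave 0 to 2 higher in hypothalamus, 0 to 2 higher and 0 to 2 lower in bone, and 0 to 4 for the difference between tissues. The lowest share higher in pituitary, 24, came without its 10-month array, and in bone, 20, without its 24-month array. On the log2 scale the plain Rpsa probe set in spleen lymphocyte turned to −0.13 (quantile), −0.036 (array weights) and −0.14 (without its 4-month array, the range being −0.14 to 0.17 over single arrays left out), and Rpl41 in liver to −0.031 (quantile). The age term of the tissue comparisons is the block for the animals that an age shares over tissues. Without this block the share lower in spleen lymphocyte was 2, and the call of Rps4y2 there was lost.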

Other observations

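The 34 probe sets that name a ribosomal protein gene together with another symbol, often a pseudogene or a relative, were not members and are given apart. In spleen lymphocyte 31 of them rose and 2 fell (27% and 32% of all probe sets did), with a median of 1.27 on the log2 scale. In pituitary 15 rose and 0 fell (28.8% and 20.4%). In hypothalamus 0 rose and 29 fell (24.8% and 29.2%), as in kidney (19.8% and 30.9%). In liver 1 rose and 15 fell (19.6% and 38.4% of all probe sets), and in bone 9 rose and 3 fell (24.6% and 25.2%). Late against early age called 0 of the 34 in any tissue.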
